A study of Sus scrofa with 22 samples.

Results

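ABCG1 and 9 other genes of sterol efflux and liver X receptor (LXR) signalling were followed in the jejunal mucosa of Ossabaw pigs fed 2 dietary patterns, with or without atorvastatin. The 10 genes are ABCG1, ABCA1, ABCG5, ABCG8, MYLIP, NR1H3, NR1H2, LPCAT3, APOE and SMPDL3A, out of 24358 genes counted in each library. In the deposited files 9 of the 10 carry their symbol, and MYLIP was found by its gene identifier, ENSSSCG00000001063, through a table of gene names. They were chosen by their levels, with differences between the diet groups already known: ABCG1 was the 1 gene that had passed the test in the comparison of the Western pattern plus atorvastatin with the heart healthy pattern alone, and the other 9 are LXR genes picked to go with it. Their differences in level between the Western pattern and the other groups are therefore given as a description, without a test of their own.

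Ossabaw pigs become obese and insulin resistant on rich diets and serve as a metabolic model. WD_S is the Western pattern, built on butter fat, cholesterol and refined carbohydrate, with atorvastatin (7 pigs, labelled atherogenic plus statin). Their drug status rests on the sample labels, since the series text uses the abbreviation in their titles for the Western pattern without atorvastatin. HHD_S is the heart healthy pattern, built on unsaturated vegetable oils, whole grains, fruit, vegetables and fibre, with atorvastatin (8 pigs), and HHD is the same pattern without the drug (7 pigs). Both patterns took 38% of energy from fat and were fed for 6 months, and atorvastatin was given at 20 mg daily for 3 months, then at 40 mg daily for 3 months. Both heart healthy groups were given fish oil capsules too (1000 mg, 3 times per week), so the dietary contrast includes fish oil. WD_S and HHD differ in dietary pattern and in atorvastatin at once, so diet and drug cannot be told apart between them. The labels give neither the sex nor the age of each pig, and a Western group without atorvastatin was not analysed here.

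LXRs are nuclear receptors that bind oxysterols, oxidized forms of cholesterol that build up when cells hold much sterol. With RXR as partner they switch on transporters that move cholesterol out of the cell, and enzymes that remodel membrane lipid. In the intestine, efflux runs both ways: ABCG5 and ABCG8 return sterol to the gut lumen across the brush border, while ABCA1 loads it onto apolipoprotein at the other face of the enterocyte.

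Unique exon read counts totalled 15.3 to 31.6 M per library and are given as CPM, read counts relative to the library total, scaled by the trimmed mean of M values (TMM). Libraries came from 2 pools named in the deposited files, with 3 WD_S, 5 HHD_S and 5 HHD libraries in pool 3, and 4, 3 and 2 in pool 4. All 10 genes passed the filter on low counts, among 13626 genes tested. The tissue label matched its markers: the 10 enterocyte markers measured summed to between 20643 and 55283 CPM in every library. Ileal markers stayed at or under 8.31 CPM except in WD_S 1 (34.1 CPM). The 7 hepatic and pancreatic markers measured summed to 4.89 to 32.6 CPM in WD_S, 4.76 to 32.3 CPM in HHD_S and 3.51 to 12.0 CPM in HHD. Of these 7, pancreatic PRSS2 was at 0 in all libraries. HHD_S 3 had the lowest enterocyte sum of all libraries. Levels were compared within a gene, since no transcript lengths were used. In bulk tissue, fewer cells of a type and less RNA per cell cannot be told apart.

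ABCG1, a half-transporter that moves cholesterol from cells to high density lipoprotein and is best known from macrophages, spans 205561897 to 205628428 of chromosome 13 in the RefSeq annotation of Sscrofa11.1. It had 39.1, 37.6, 24.4, 32.3, 28.7, 35.0 and 26.3 CPM in WD_S 1 to 7. In HHD_S 1 to 8 it had 17.8, 18.6, 20.6, 15.4, 16.2, 20.5, 16.5 and 27.6 CPM, and in HHD 1 to 7 it had 15.8, 19.2, 17.1, 18.8, 14.6, 19.2 and 20.0 CPM. All 7 WD_S libraries lay above all 7 HHD libraries, and 5 of the 7 lay above every HHD_S library. HHD_S 8 was the 1 heart healthy library that reached into the Western range, lying above WD_S 3 and WD_S 7.

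**Figure D1:**
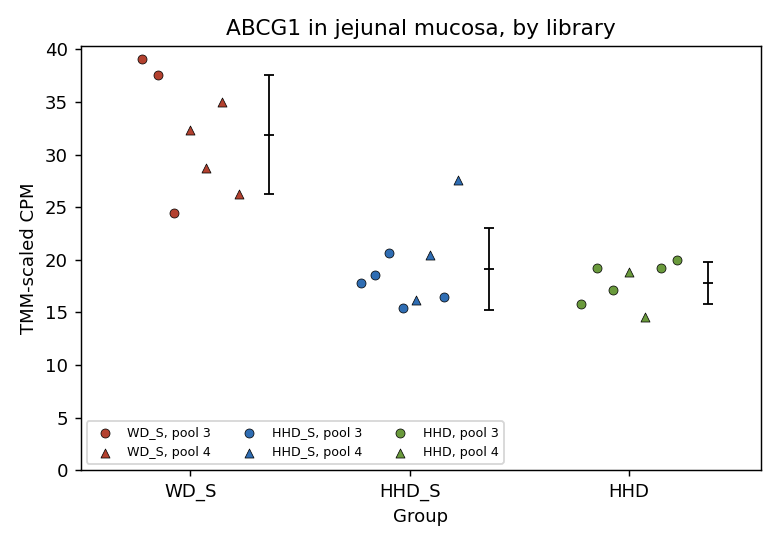
ABCG1 in TMM-scaled CPM (vertical axis, from 0) in each library of WD_S, HHD_S and HHD, with circles for pool 3, triangles for pool 4 and bars for the mean and SD. The 7 WD_S libraries sit between 24.4 and 39.1 CPM, and HHD_S 8, at 27.6 CPM, is the single heart healthy library inside that range.

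ABCG1 averaged 31.9 ± 5.67 CPM in WD_S, 19.1 ± 3.91 CPM in HHD_S and 17.8 ± 2.02 CPM in HHD (SD; n = 7, 8 and 7). The level in WD_S was 1.67-fold that in HHD_S (log2 fold change 0.74, SE 0.128) and 1.79-fold that in HHD (0.84, SE 0.135). Both values share the WD_S libraries, and the value against HHD spans a difference in both diet and atorvastatin. Against HHD_S the log2 fold change was 0.94 within pool 3 and 0.52 within pool 4, the pool that holds HHD_S 8. Against HHD it was 0.89 in pool 3 and 0.88 in pool 4. Without HHD_S 8 the value against HHD_S was 0.85. Without both HHD_S 3 and HHD_S 8, a pair chosen after seeing the data, the values were 0.89 against HHD_S and 0.86 against HHD. Leaving out WD_S 1, the library highest in ABCG1 and in ileal markers, lowered the value against HHD to 0.76.

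Whether a gene was called depended on the contrast and on single libraries. Between WD_S and HHD, edgeR called 1 of the 10 genes, ABCG1, and 0.00734% of all 13626 genes. At an unadjusted p under 0.05 there were again 1 of the 10 and 3.41% of all genes (1.95% higher and 1.46% lower in WD_S). That contrast was used to choose ABCG1, so nothing is read from the count. The call was absent in 17 of 22 fits that left out 1 library, those without WD_S 1, 2, 4, 5 or 6, any of HHD 1 to 7, or HHD_S 1, 2, 3, 5 or 6. It was also absent within either pool alone and when libraries were scaled by total counts alone. Between WD_S and HHD_S edgeR called 0 of the 10 genes and 0% of all genes, with 1 of the 10 (ABCG1) and 2.92% of all genes at an unadjusted p under 0.05 (1.47% higher and 1.45% lower in WD_S). In that contrast ABCG1 was called by DESeq2 and by limma, and by edgeR without the pool term or without WD_S 3, WD_S 7 or HHD_S 8. That contrast too was known when the genes were chosen. Libraries that did not overlap between groups with WD_S higher were seen for 1 of the 10 genes against HHD (0.0294% of all genes, with 0.0367% lower) and for none of the 10 against HHD_S (0.0147% of all genes).

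ABCA1, the transporter that starts high density lipoprotein by passing cholesterol and phospholipid to apolipoprotein A-I, lies on chromosome 1 (246144277 to 246278492). It ranged from 71.7 to 97.3 CPM in WD_S with a median of 84.9, from 43.4 to 105 CPM in HHD_S with a median of 72.1, and from 42.4 to 165 CPM in HHD with a median of 96.7. The HHD libraries spread on both sides of the WD_S range, with 3 above all of WD_S and 3 below. Its log2 fold change was 0.27 (SE 0.235) against HHD_S and -0.10 (SE 0.244) against HHD, on either side of 0.

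ABCG5 and ABCG8 encode the partners of 1 transporter, which sends cholesterol and plant sterols back into the gut lumen. Their RefSeq spans lie side by side on chromosome 3, ABCG8 from 96596975 to 96616224 and ABCG5 from 96616304 to 96656893, with 79 bases between them. ABCG5 ranged from 114 to 248 CPM in WD_S (median 222), from 94.7 to 238 CPM in HHD_S (median 203) and from 114 to 246 CPM in HHD (median 147). ABCG8 ranged from 248 to 384 CPM in WD_S (median 318), from 173 to 432 CPM in HHD_S (median 321) and from 170 to 343 CPM in HHD (median 235). The groups overlapped for both genes. The ABCG5 span overlaps DYNC2LI1, and the library kit does not mark strand, so reads of the 2 genes may be mixed where they overlap. Against HHD_S the log2 fold changes were 0.10 (SE 0.204) for ABCG5 and 0.06 (SE 0.192) for ABCG8, and against HHD they were 0.32 (SE 0.215) and 0.29 (SE 0.200). The ratio of ABCG8 to ABCG5 counts, which is not corrected for length and so does not rank the 2 genes, ran from 1.15 to 2.18 over the 22 libraries, with medians of 1.55 in WD_S, 1.62 in HHD_S and 1.49 in HHD.

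The receptors come next. NR1H2 encodes LXR beta, the form found in most cells (chromosome 6, 55238536 to 55245457), and ranged from 115 to 144 CPM in WD_S, from 88.0 to 152 CPM in HHD_S and from 113 to 134 CPM in HHD. It was the least variable of the 10 genes between pigs, with a biological coefficient of variation (the relative spread beyond counting error) of 13.9%, and only 9.73% of all genes varied less. Its log2 fold change was 0.06 (SE 0.0893) against HHD_S and 0.05 (SE 0.0943) against HHD. NR1H3, which encodes LXR alpha (chromosome 2, 15315283 to 15336785), had 5 to 21 counts per library. It ranged from 0.293 to 0.849 CPM in WD_S, from 0.249 to 0.659 CPM in HHD_S and from 0.512 to 0.742 CPM in HHD. Its log2 fold change was 0.23 (SE 0.239) against HHD_S and 0.03 (SE 0.244) against HHD. Its span overlaps MADD and ACP2, which adds to the uncertainty.

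APOE, a lipoprotein component and cholesterol acceptor made by macrophages among other cells (chromosome 6, 51373113 to 51375333), ranged from 17.7 to 35.7 CPM in WD_S (median 25.9). It ranged from 12.9 to 37.8 CPM in HHD_S (median 18.8) and from 13.8 to 25.5 CPM in HHD (median 22.5). Its log2 fold changes were 0.36 (SE 0.198) against HHD_S and 0.38 (SE 0.206) against HHD. Of the 7 WD_S libraries 4 lay above every HHD library, and the highest value of all, 37.8 CPM, belonged to HHD_S 3.

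MYLIP, a ubiquitin ligase that LXR induces and that marks the low density lipoprotein receptor for breakdown (chromosome 7, 12117240 to 12137934), varied most between pigs, with a biological coefficient of variation of 39.4%. It ranged from 66.4 to 196 CPM in WD_S (median 133), from 52.8 to 205 CPM in HHD_S (median 89.8) and from 48.8 to 195 CPM in HHD (median 109.5). Its log2 fold changes were 0.45 (SE 0.297) against HHD_S and 0.21 (SE 0.305) against HHD. Against HHD the value was 0.61 within pool 3 and -0.39 within pool 4.

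LPCAT3, an enzyme that puts polyunsaturated fatty acids into membrane phospholipids (chromosome 5, 63707674 to 63746369), ranged from 97.0 to 124 CPM in WD_S, from 44.4 to 244 CPM in HHD_S and from 80.0 to 217 CPM in HHD. Of the 8 HHD_S libraries 6 lay below all of WD_S, and HHD_S 7, at 244 CPM, lay above all of it. The log2 fold changes were 0.27 (SE 0.284) against HHD_S and -0.09 (SE 0.295) against HHD. The LPCAT3 span overlaps EMG1, so its counts are uncertain there.

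SMPDL3A, a phosphodiesterase that LXR induces in human macrophages (chromosome 1, 39848641 to 39869184), ranged from 26.0 to 49.4 CPM in WD_S (median 39.9), from 20.8 to 40.5 CPM in HHD_S (median 33.8) and from 21.8 to 37.1 CPM in HHD (median 30.0). Of the 7 WD_S libraries 5 lay above every HHD library, and WD_S 1 and WD_S 2 lay within the HHD range. The log2 fold changes were 0.21 (SE 0.146) against HHD_S and 0.31 (SE 0.154) against HHD.

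**Figure D2:**
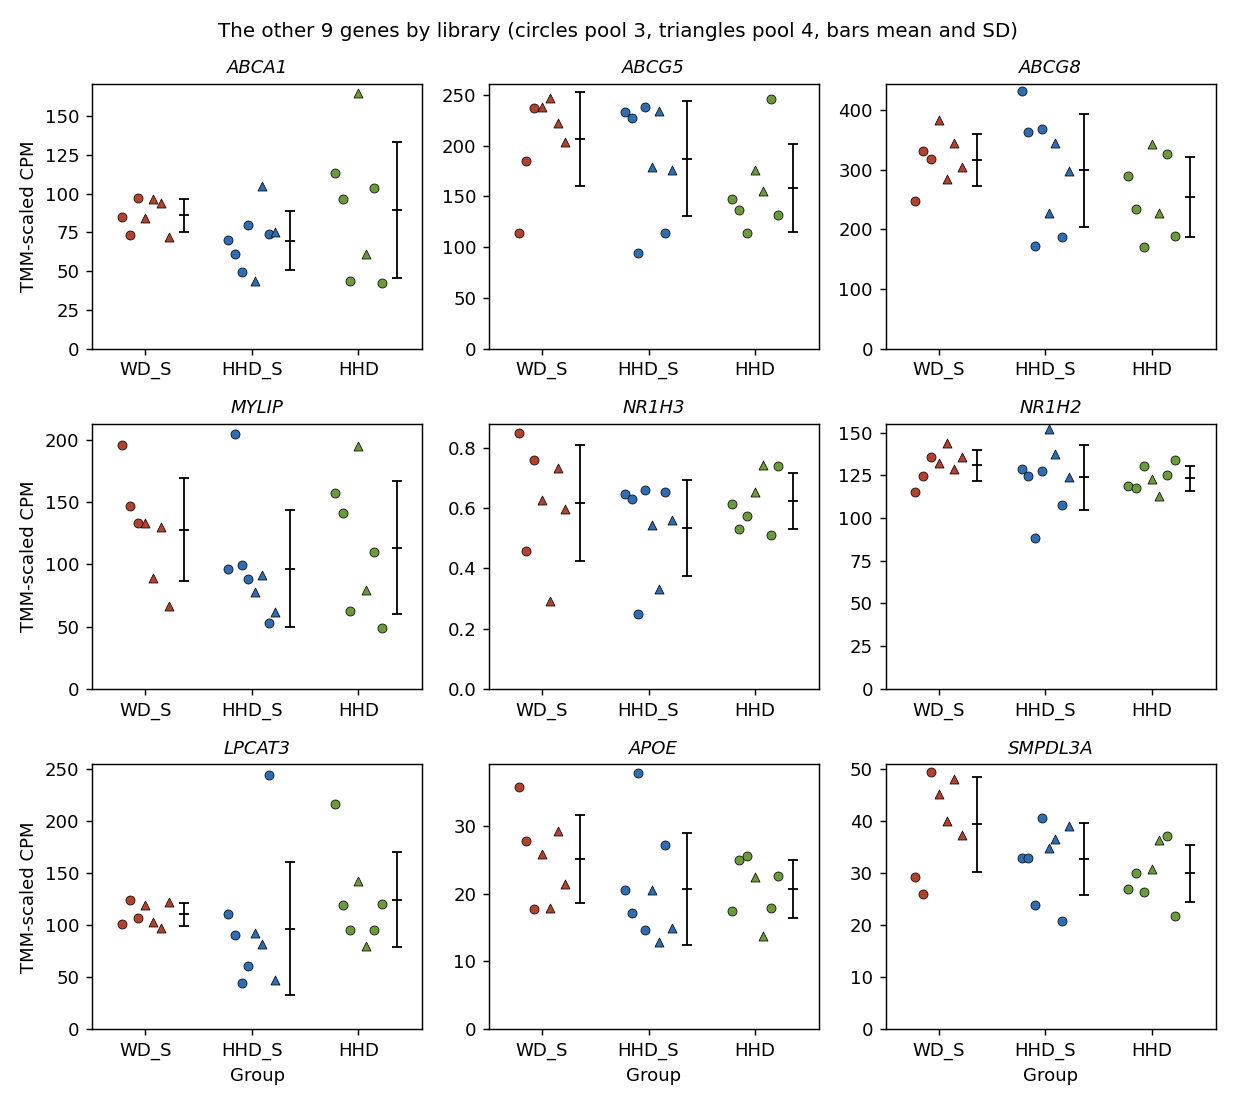
The other 9 genes in TMM-scaled CPM (vertical axes, from 0) in each library of WD_S, HHD_S and HHD, with circles for pool 3, triangles for pool 4 and bars for the mean and SD. The groups overlap for every gene, and ABCA1 and LPCAT3 lie closer together in WD_S (71.7 to 97.3 and 97.0 to 124 CPM) than in the heart healthy groups.

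Over the list, 10 of 10 log2 fold changes were above 0 in WD_S against HHD_S, with a median of 0.25, beside 47.1% of all genes and a median of -0.01. Against HHD, 8 of 10 were above 0 with a median of 0.25, beside 49.0% of all genes and a median of -0.00. These 2 sets of values share the WD_S libraries, and the genes were chosen with them known. The count of 10 was 8 within pool 3, where ABCG5 and ABCG8 stood at -0.01 each, 7 with limma and 8 without HHD_S 3 and HHD_S 8.

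The comparison of HHD_S with HHD asked what atorvastatin was associated with under the heart healthy pattern. None of the 10 genes passed, the log2 fold changes split 5 above and 5 below 0 (52.6% of all genes were above), and their median was 0.01, the same as for all genes. edgeR called 0 of the 10 genes and 0% of all genes, with 0 of the 10 and 1.81% of all genes at an unadjusted p under 0.05 (1.07% higher and 0.741% lower in HHD_S), and DESeq2 and limma called 0 of the 10 as well. The edgeR adjusted p was 0.9993 for each of the 10. ABCG1 had a log2 fold change of 0.10 (SE 0.129, 95% interval -0.17 to 0.37). The HHD libraries were among those on which ABCG1 was chosen, so this value is not separate from that choice. The log2 fold change was 0.36 within pool 4, where HHD has 2 libraries, and -0.05 within pool 3, and it was -0.03 without HHD_S 3 and HHD_S 8. The intervals of the other genes were wider except that of NR1H2 (-0.19 to 0.18), and ran from -0.85 to 0.12 for ABCA1, from -0.20 to 0.65 for ABCG5, from -0.17 to 0.63 for ABCG8 and from -0.93 to 0.22 for LPCAT3.

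**Figure D3:**
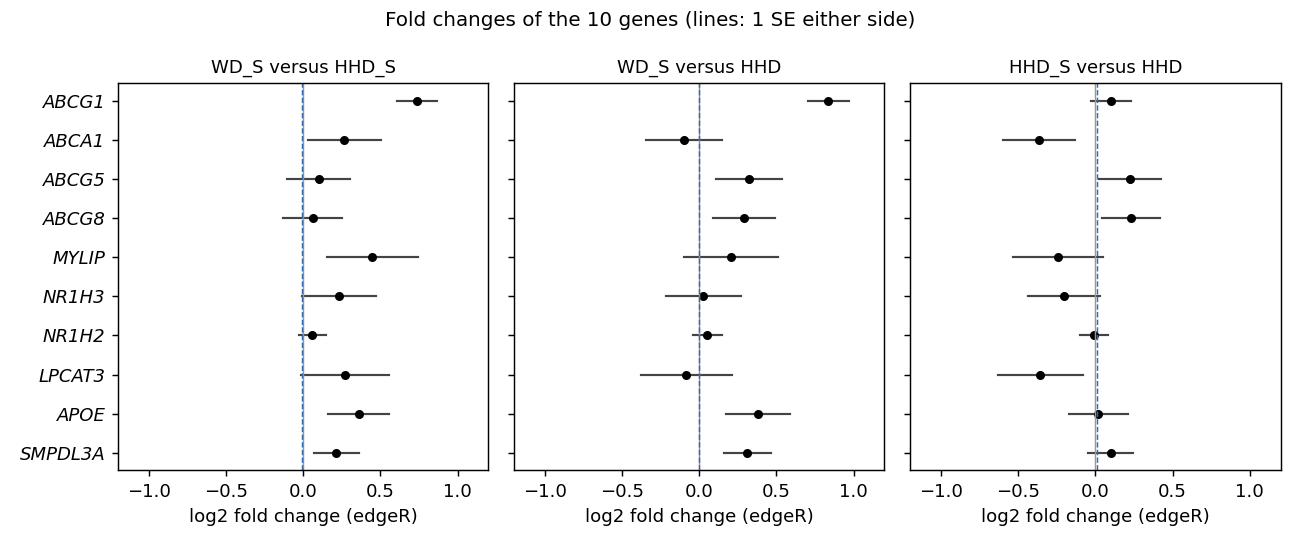
Log2 fold changes of the 10 genes from edgeR (horizontal axis) in the 3 comparisons, each point with a line of 1 SE on either side, and a dashed line at the median of all genes. ABCG1 lies farthest from 0 in both comparisons of WD_S (0.74 and 0.84) and at 0.10 in HHD_S versus HHD.

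How the genes moved together between pigs of the same group was not used to choose them. Group and pool means were removed from log2 CPM, and all 45 pairs of genes were correlated over the 22 libraries with two-sided permutation tests. ABCG5 and ABCG8, partners in 1 transporter, varied together (Pearson r = 0.84, permutation adjusted p = 0.00495; Spearman rho = 0.86, adjusted p = 0.00585). Without the 2 libraries farthest from the median, HHD 6 and HHD_S 3, r was 0.80. It was 0.60 among WD_S, 0.96 among HHD_S and 0.76 among HHD libraries, and the pair passed in all 22 repeats without 1 library. ABCG5 and APOE varied in opposite directions (r = -0.72, permutation adjusted p = 0.0272; rho = -0.60, adjusted p = 0.104), with r = -0.65 without HHD 6 and HHD_S 3. That second relation passed by Pearson's r alone, and did not pass without WD_S 2, HHD 3, HHD 6, or HHD_S 1, 3, 4 or 6 (adjusted p up to 0.119).

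ABCG1 was in neither of the relations that passed. Over the 22 libraries its correlations with the other 9 genes lay between -0.32 (LPCAT3) and 0.36 (APOE), and none passed. ABCA1, the other cellular efflux pump, had r = 0.06 with ABCG1. Within single groups r of ABCG1 varied more. With APOE it was 0.80 among WD_S, -0.01 among HHD_S and 0.55 among HHD libraries, and with NR1H2 it was -0.815, -0.36 and 0.63. These values within groups were not tested. No other pair among the 45 passed, although 7 pairs did when group means alone were removed and the difference between pools was kept, among them ABCG5 with SMPDL3A (r = 0.76, permutation adjusted p = 0.00525) and ABCA1 with ABCG8 (r = 0.63, adjusted p = 0.0315).

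The same deviations were set against the mean of 10 enterocyte markers and of 14 macrophage and dendritic cell markers, 20 relations in all. ABCG8 (r = 0.72, permutation adjusted p = 0.00805; rho = 0.70, adjusted p = 0.00985) and ABCG5 (r = 0.67, adjusted p = 0.00805; rho = 0.68, adjusted p = 0.0088) were higher in pigs with higher enterocyte markers. Without HHD 4 and HHD_S 3, the libraries farthest from the median enterocyte score, r was 0.62 for ABCG8 and 0.61 for ABCG5. ABCA1 followed enterocyte markers too (r = 0.62, permutation adjusted p = 0.0247; rho = 0.64, adjusted p = 0.0259), with 0.56 without those 2 libraries, but did not pass without HHD 3, HHD 7 or HHD_S 3 (adjusted p up to 0.0795).

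APOE was higher in pigs with higher macrophage markers (r = 0.70, permutation adjusted p = 0.00805; rho = 0.67, adjusted p = 0.00985), with r = 0.68 without HHD 6 and HHD_S 4, the libraries farthest from the median. ABCG5 was lower in them (r = -0.77, adjusted p = 0.00805; rho = -0.72, adjusted p = 0.00985), with r = -0.68 without those 2. SMPDL3A was also lower (r = -0.68, permutation adjusted p = 0.0247; rho = -0.59, adjusted p = 0.0576), with r = -0.52 without those 2, and did not pass without HHD 6 or without HHD_S 4 (adjusted p up to 0.0813). The relations of ABCG5, ABCG8 and APOE named here passed in all 22 repeats without 1 library. The 2 marker scores had r = -0.35 with each other (permutation p = 0.199; rho = -0.37, p = 0.113), with -0.32 without HHD 6 and HHD_S 4.

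LPCAT3 with the enterocyte score and ABCG8 with the macrophage score passed by rho alone (permutation adjusted p = 0.0259 and 0.0467; by r, adjusted p = 0.0648 each). ABCG1 passed with neither score. It had r = -0.39 with enterocyte markers (permutation adjusted p = 0.151; rho = -0.46, adjusted p = 0.124), with -0.47 without HHD 4 and HHD_S 3. It had r = 0.30 with macrophage markers (adjusted p = 0.257; rho = 0.31, adjusted p = 0.258), with 0.30 without HHD 6 and HHD_S 4. The enterocyte relation passed in 1 of the 22 repeats without 1 library, the one without HHD 5 (adjusted p = 0.0320).

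**Figure D4:**
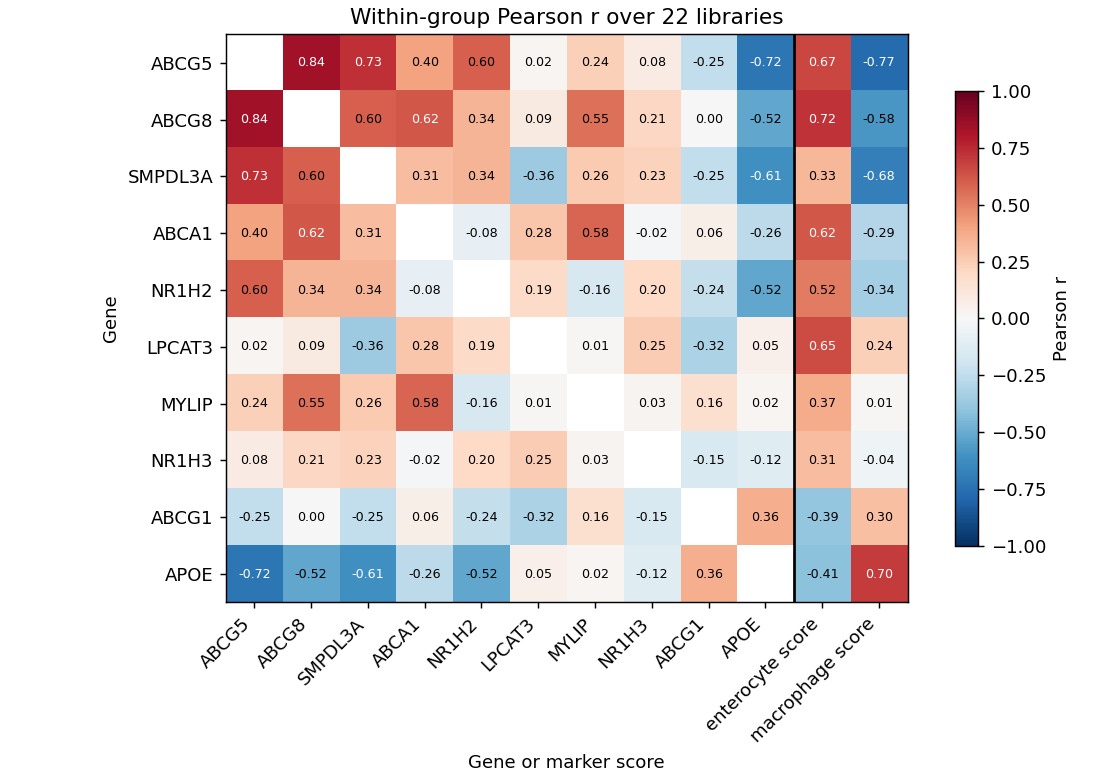
Pearson r over 22 libraries between the 10 genes (rows) and between each gene and the enterocyte and macrophage scores (last 2 columns), from log2 CPM with group and pool means removed. ABCG5 and ABCG8 share the deepest red (0.84), and ABCG1 has no value beyond 0.36 with another of the genes.

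**Figure D5:**
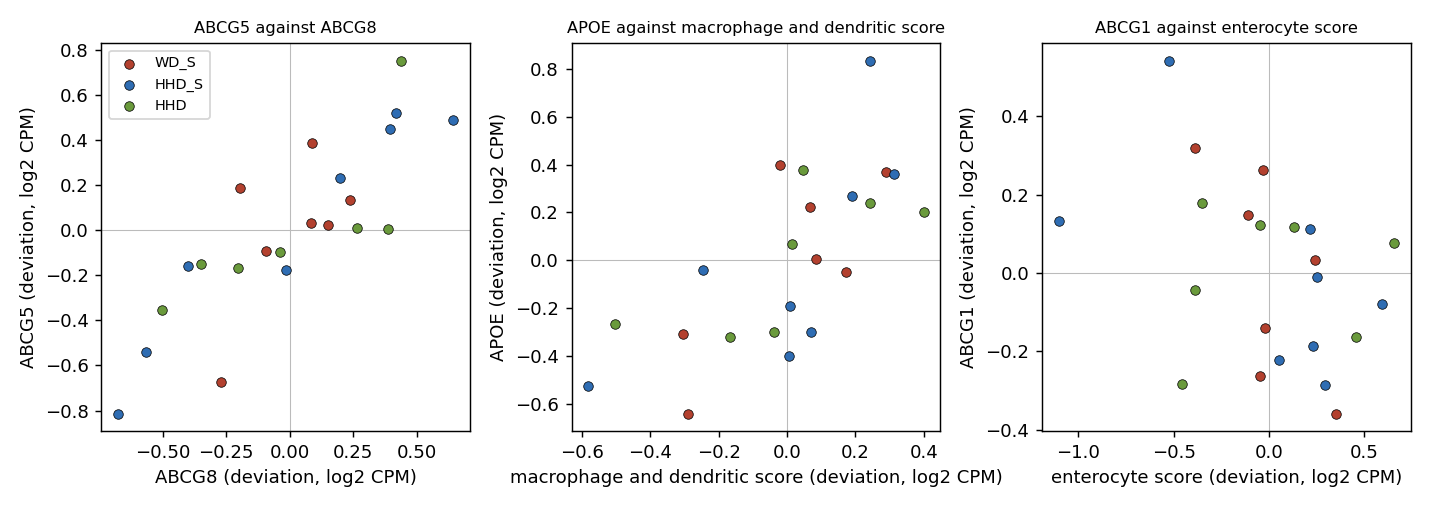
Deviations from group and pool means in log2 CPM, 1 point per library coloured by group: ABCG5 against ABCG8 (r = 0.84), APOE against the macrophage and dendritic score (r = 0.70) and ABCG1 against the enterocyte score (r = -0.39). Group means were removed, so the points of the 3 groups are centred together in each panel by construction.

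Marker genes of several cell types were set beside ABCG1, and edgeR called none of them in any comparison. Of all genes, 47.1% had a log2 fold change above 0 in WD_S against HHD_S, 49.0% in WD_S against HHD and 52.6% in HHD_S against HHD. Of 14 macrophage and dendritic markers, 12 had a log2 fold change above 0 in WD_S against HHD_S (median 0.20) and 11 in WD_S against HHD (median 0.19). In HHD_S against HHD 3 of 14 were above 0 (median -0.12), where ABCG1 had 0.10. The macrophage and dendritic markers summed to 1412 to 3192 CPM in WD_S (median 2290), 957 to 4570 CPM in HHD_S (median 1880) and 1513 to 4567 CPM in HHD (median 2511), so the median sum in WD_S lay above that in HHD_S and below that in HHD. LYZ, which crypt cells can express as well, made up much of that sum, and without it the 14 other genes summed to 810 to 1500.3 CPM in WD_S (median 1212.5), 674 to 1198 CPM in HHD_S (median 1006) and 647 to 1355 CPM in HHD (median 1036), with the highest median in WD_S. None of the 15 markers was at 0 in all libraries, and MARCO was under the filter. Enterocyte markers were above 0 for 6 of 10 genes in both comparisons of WD_S (medians 0.07 and 0.09). Of 9 enteroendocrine and tuft cell markers, 7 were above 0 in WD_S against HHD_S (median 0.20), 8 in WD_S against HHD (median 0.35) and 6 in HHD_S against HHD (median 0.04). Those 9 summed to 128 to 234 CPM in WD_S, 119 to 229 CPM in HHD_S and 88.8 to 216 CPM in HHD, with overlapping groups and no marker at 0 in all libraries. T and natural killer cell markers were above 0 for 1 of 9 in WD_S against HHD_S (median -0.25) and for 3 of 9 in WD_S against HHD (median -0.06). Fibroblast and smooth muscle markers were above 0 for 9 of 10 in WD_S against HHD_S (median 0.14) and for 1 of 10 in WD_S against HHD (median -0.11). Goblet, Paneth and crypt, B and plasma, and endothelial markers had medians of 0.28, 0.12, 0.12 and 0.06 in WD_S against HHD_S. In WD_S against HHD their medians were -0.04, -0.17, -0.05 and -0.04 in the same order. B and plasma markers were above 0 for 7 of 8 in WD_S against HHD_S and for 4 of 8 against HHD. In HHD_S against HHD, T and natural killer markers were above 0 for 9 of 9 (median 0.16) and enterocyte markers for 6 of 10 (0.03). The count there was 0 of 7 for goblet (-0.38), 0 of 10 for fibroblast and smooth muscle (-0.30) and 1 of 5 for Paneth and crypt markers (-0.26). It was 3 of 8 for B and plasma (-0.16) and 1 of 6 for endothelial markers (-0.175). The part of these cell types in the level of ABCG1 was not tested.

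The 5 genes whose deviations were most like those of ABCG1 over the 22 libraries were HSD11B2 (r = 0.83), RHBDF2 (0.80), MGMT (0.78), VPS37D (0.75) and OSBPL7 (0.75), out of 11100 named genes whose log2 CPM averaged 1 or more. HSD11B2 inactivates cortisol, MGMT repairs alkylated DNA, and OSBPL7 belongs to the oxysterol-binding protein family. They are the top of a long ranking and carry no test. Their log2 fold changes lay between -0.15 and 0.15 in WD_S against HHD_S, where ABCG1 had 0.74, and between -0.02 and 0.29 against HHD. The nearest of the other 9 genes, APOE, ranked 1134.

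The spread between pigs differed from gene to gene. WD_S had the smallest SD of log2 CPM of the 3 groups for 6 of the 10 genes, beside 42.4% of all genes. ABCA1 had an SD of 0.20 in WD_S, 0.40 in HHD_S and 0.72 in HHD, LPCAT3 of 0.18, 0.76 and 0.46, and ABCG8 of 0.19, 0.50 and 0.37. Spread in WD_S was set against that in each other group in 20 two-sided exact permutation tests. The smallest permutation p was 0.0205 (ABCG8, WD_S against HHD_S), and no difference passed after adjustment (smallest adjusted p = 0.337). These tests used the libraries on which the genes were chosen and split them without regard to pool, so nothing is read from them.

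Other genes around LXR gave no call in any of the 3 comparisons. Of 12 LXR partners and cofactors, 0 were called in either direction by edgeR and 0 had an unadjusted p under 0.05, where the shares of all genes at that p were 2.92% in WD_S against HHD_S, 3.41% in WD_S against HHD and 1.81% in HHD_S against HHD. At these shares a count of 0 among 12 genes is not a result about the list. TBL1XR1, part of a co-repressor complex, had a log2 fold change of -0.22 (SE 0.120) in WD_S against HHD_S. Against HHD the widest differences were 0.24 (SE 0.178) for RXRG and 0.15 (SE 0.156) for RXRA, both retinoid X receptors that pair with LXR. In HHD_S against HHD they were 0.21 (SE 0.133) for the deacetylase SIRT1 and 0.125 (SE 0.118) for TBL1XR1.

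Of 12 further LXR targets tested, edgeR called 0, and 2 had an unadjusted p under 0.05 with WD_S higher in both comparisons of WD_S (SCD and MLXIPL), while 1 had with WD_S lower against HHD (ELOVL6). Of all genes, 1.47% were higher at that p in WD_S against HHD_S, and 1.95% were higher and 1.46% lower in WD_S against HHD. MLXIPL, the carbohydrate-responsive factor, was named after its values were seen. SCD, the desaturase that makes oleic acid, averaged 73.6 ± 36.9 CPM in WD_S, 25.7 ± 19.4 CPM in HHD_S and 20.6 ± 8.41 CPM in HHD (SD; n = 7, 8 and 7), with overlapping groups. SREBF1, the lipogenic transcription factor that LXR induces, averaged 222.5 ± 75.0 CPM in WD_S, 122 ± 95.5 CPM in HHD_S and 123 ± 48.3 CPM in HHD (SD; n = 7, 8 and 7). Its groups overlapped, at 157 to 327 CPM in WD_S, 16.4 to 311.5 CPM in HHD_S and 58.3 to 187 CPM in HHD. The SREBF1 log2 fold change against HHD_S was 0.89 (SE 0.456). ELOVL6, an elongase of saturated fatty acids, lay on the other side, at 24.1 ± 3.52 CPM in WD_S, 38.7 ± 35.4 CPM in HHD_S and 51.2 ± 32.3 CPM in HHD (SD; n = 7, 8 and 7). In HHD_S against HHD, 0 of the 12 had an unadjusted p under 0.05, beside 1.81% of all genes. The widest log2 fold changes were -0.39 (SE 0.402) for ELOVL6 and 0.32 (SE 0.417) for SCD.

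Of the 5 enzymes tested that make or clear oxysterols, 0 were called and 0 had an unadjusted p under 0.05 in each comparison. Of all genes, 2.92% had such a p in WD_S against HHD_S, 3.41% in WD_S against HHD and 1.81% in HHD_S against HHD. At these shares a count of 0 among 5 genes is not a result about the list. CYP27A1, a mitochondrial sterol hydroxylase, averaged 70.9 ± 19.9 CPM in WD_S, 64.2 ± 21.8 CPM in HHD_S and 62.0 ± 28.7 CPM in HHD (SD; n = 7, 8 and 7). CH25H, another cholesterol hydroxylase, averaged 3.74 ± 0.391, 4.14 ± 0.883 and 4.14 ± 0.940 CPM in the same order, and CYP7B1 and HSD3B7 had log2 fold changes between -0.11 and 0.12. Of 12 genes of sterol entry, storage and lipoprotein handling, 0 were called and 0 had an unadjusted p under 0.05. Beside the same shares of all genes, that count is not a result about the list either. SCARB1, a high density lipoprotein receptor, ranged from 101 to 680 CPM in WD_S, from 14.5 to 458 CPM in HHD_S and from 16.7 to 472 CPM in HHD. APOA1, the main acceptor of ABCA1, averaged 21235.5 ± 5863 CPM in WD_S, 16382 ± 8055 CPM in HHD_S and 15902.5 ± 6226 CPM in HHD (SD; n = 7, 8 and 7), and APOA4 had a log2 fold change of -0.96 (SE 0.598) in WD_S against HHD. DESeq2 and limma called none of these genes either.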

How the data were processed

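RNA of jejunal mucosa was sequenced from 22 pigs with an unstranded TruSeq kit, per the labels' protocols. The authors deposited, per the file headers, a count of uniquely placed exon reads for each gene, so multi-mapping reads do not enter. How reads were mapped is not stated further in the labels. Coordinates are RefSeq gene spans of Sscrofa11.1, looked up by symbol. All 231 pairs of libraries differed beyond sampling noise (smallest reduced chi-square 25.2). In the series text the abbreviation found in the WD_S titles stands for the Western pattern without atorvastatin. The sample labels of these pigs say atherogenic plus statin, and the sample labels were followed. That WD_S received atorvastatin rests on those labels. Nothing says more of the replicates than that they are separate pigs' samples.

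The counts were analysed with edgeR 4.0.16 (R 4.3.3): filterByExpr with a minimum count of 10 removed low genes, and the rest were scaled by TMM and fitted with a robust quasi-likelihood model over all 3 groups, with library pool as an additive term (18 residual degrees of freedom). Benjamini-Hochberg adjustment ran over all 13626 genes, with a threshold of 0.05. The procedure was tested on simulated data. DESeq2 1.42.0, limma 3.58.1, other filters and scalings, single pools and each library left out were alternatives. Correlations used log2 CPM (prior count 2) and 100000 permutations within group and pool, and those with marker scores were added after the files had been seen. The members and lists were chosen with earlier results of these data known. Named genes were all 10 members, of each pathway list the called genes and the 2 with the widest log2 fold change in each comparison where log2 CPM averaged 1 or more, and the 5 most like ABCG1. One gene that this rule names is not reported here. No sequences were used.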

Additional observations from a re-analysis of the deposited data

Results flagged for a closer look

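Of 30 sets of values (10 genes in 3 groups), 3 had a library far from the others by Dixon's gap test. Chance gives about 1 in 20 for normally distributed values. The test was run on CPM without a log, and whether CPM is so distributed was not tested. ABCG1 was at 27.6 CPM in HHD_S 8, with a gap to the next library of 0.574 of the range of the group. MYLIP was at 204.8 CPM in HHD_S 2, with a gap of 0.693 of the range. LPCAT3 was at 244.3 CPM in HHD_S 7, with a gap of 0.668 of the range. The critical value was 0.526 for each.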

How the results depend on the processing

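The log2 fold change of ABCG1 stayed above 0 in 34 of 34 alternatives in both comparisons of WD_S, at 0.52 to 0.94 against HHD_S and 0.76 to 0.93 against HHD. ABCG1 was chosen on these same libraries, so its steady sign is not separate support. Its calls were less steady. In WD_S versus HHD, 0 genes and 0 of the 10 were called within pool 3, within pool 4 or with total counts, DESeq2 called 2 genes, and leaving out 1 library gave 0 to 1 genes and 0 to 1 of the 10. In WD_S versus HHD_S, 2 genes were called without the pool term, 4 by DESeq2, 1 by limma and 1 without HHD_S 3 and HHD_S 8 (an alternative chosen after seeing the data), each time with 1 of the 10, and leaving out 1 library gave 0 to 2 genes and 0 to 1 of the 10. In HHD_S versus HHD, DESeq2 called 1 gene, none of the 10, and ABCG1 had 0.36 within pool 4. Of the 45 pairs, 7 passed with group means alone removed and 1 to 3 without 1 library. The causes of these changes were not tested. NR1H3 was dropped by the stricter filter. No paired analysis was possible because the labels give no replicate numbers, and those used here follow accession order and pair no pigs.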
